A study of Mus musculus with 8 samples.

Results

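The Hox genes are described here across spheroids of 2 mouse mammary cell lines. Members were taken by name, as every gene of the count table called Hoxa, Hoxb, Hoxc or Hoxd followed by its paralogue number, which gave 39 of 25413 genes. Cluster A held 11 of them, cluster B 10, cluster C 9 and cluster D 9. Paralogue numbers 1 to 3 were called anterior (8 genes), 4 to 8 central (15 genes) and 9 to 13 posterior (16 genes).

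Polyadenylated RNA was sequenced from EpH4, labelled wildtype, and from EpH4-AS, which the labels give as its malignantly transformed counterpart. Spheroids, which are 3D cell aggregates, of both lines were grown with PM2.5 (fine particles of polluted air) or without it. The 4 groups were EpH4 untreated, EpH4 with PM2.5, EpH4-AS untreated and EpH4-AS with PM2.5, each with 2 libraries. The dose and duration of PM2.5, the agent behind the transformation and the number of clones are not given in the labels used here. Nor do the labels say whether replicates are independent cultures, so each p-value reflects only how far these libraries scatter, which could be technical scatter.

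Hox genes encode transcription factors that give cells their position along the body axis. Mammals carry them in 4 clusters, each in an order along the chromosome that follows the order of the regions in which its genes act, and paralogues share a number across clusters. Adult cells, fibroblasts above all, keep much of the Hox pattern of the place they came from. Silent Hox genes are held by Polycomb proteins and active ones are maintained by Trithorax proteins. Several posterior members of the paralogue 9 group are needed for growth of the mammary gland.

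Total counts per library ran from 24608176 to 27765982 in EpH4 and from 15393256 to 18334052 in EpH4-AS. Reads of genes lying outside exons made up 11.3% to 12.5% of gene reads in EpH4 and 3.39% to 3.59% in EpH4-AS, and mitochondrially encoded transcripts 2.21% to 5.03% and 0.219% to 0.302% of counts. Markers went against the epithelial label. Of 15 epithelial markers, 13 in EpH4 and 14 in EpH4-AS had a mean under 1 CPM (counts per library size, scaled by TMM), and their sum was 11.1 to 14.1 CPM in EpH4 and 2.39 to 2.97 CPM in EpH4-AS libraries. The defining markers Krt19 and Cldn4 had 0 counts in every library, Krt18 at most 2 and Cdh1 at most 4. Those above 1 CPM in EpH4 were Ovol1 and Krt14, at 6.36 and 3.17 CPM untreated and 3.04 and 8.59 CPM with PM2.5. In EpH4-AS it was Krt7, at 1.67 CPM untreated and 1.32 CPM with PM2.5. Epcam stood at 0 CPM in untreated EpH4 and 0.518 CPM in untreated EpH4-AS. The 12 fibroblast and mesenchymal markers summed to 4560 to 5110 CPM in EpH4 and 4130 to 5160 CPM in EpH4-AS, led by Vim and Dcn in both untreated lines. Of these markers, Col1a2 stood at 1070 CPM in untreated EpH4 and 34.4 CPM in untreated EpH4-AS, Col1a1 at 4 and 0.0933 CPM, Thy1 at 0.111 and 0 CPM, and Fbln1 at 0.0182 and 0.0316 CPM. By the edgeR test given below, 4 of the 10 markers tested were higher in untreated EpH4-AS and 6 lower, beside 43.6% and 45.7% of all genes. The 4 were Col3a1 (0.749 CPM in EpH4 and 45.1 CPM in EpH4-AS), Lum (0.589 and 3.21), Twist2 (6.6 and 29.1) and Vim (2070 and 3650). Endothelial markers summed to at most 1.09 CPM. Of the immune markers, Cd68 alone passed 1 CPM, at 172 CPM in untreated EpH4 and 38.3 CPM in untreated EpH4-AS. Of the 5 adipocyte markers, Cidec rose from 0.0199 to 50.3 CPM and Fabp4 from 0.786 to 15.4 CPM between the untreated lines. The others were at or next to 0 in both, with Adipoq at 0 and 0.0301 CPM and Plin1 at 0.189 and 0.0632 CPM. Lep had 0 counts in every library. The part of these differences in the Hox results was not tested.

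Of the 39 Hox genes, 29 passed the filter on low counts and 10 did not. The 10 were Hoxa11, Hoxa13, Hoxb1, Hoxb13, Hoxc12, Hoxd1, Hoxd10, Hoxd11, Hoxd12 and Hoxd13. Hoxa11 reached at most 4 counts in a library, Hoxc12 2, and Hoxb13 and Hoxd13 1. The other 6 had no count in any of the 8 libraries, and a count of 0 allows up to 3 counts, which is 0.108 to 0.195 CPM by library. Of the 10, 8 are posterior genes and 2, Hoxb1 and Hoxd1, anterior genes. Since 29 genes passed partly through the line in which they were high, their counts are to be read against the share of all genes called, which between the untreated lines was 43.6% higher and 45.7% lower in EpH4-AS.

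**Figure D1:**
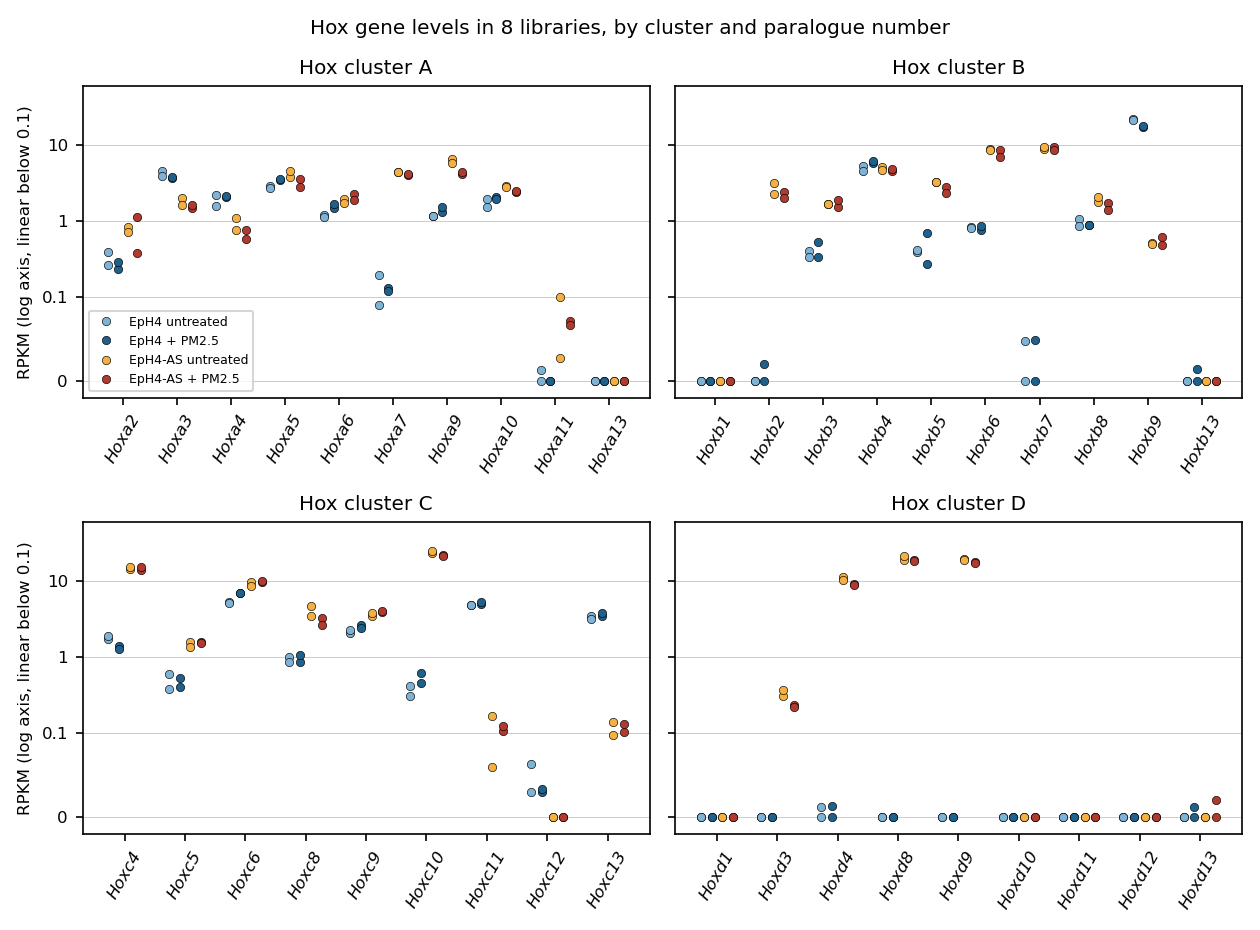
Levels of 38 Hox genes in each of the 8 libraries, as RPKM (reads scaled to exon length and library size; log axis, linear below 0.1), with 1 panel per cluster and genes in order of paralogue number. Points are libraries, coloured by group. Cluster D is at or next to 0 in EpH4, while Hoxd4, Hoxd8 and Hoxd9 lie between 9.10 and 21.5 RPKM in EpH4-AS.

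The lines carried different sets of Hox transcripts. In untreated EpH4 a single gene, Hoxb9, led with 21.6 RPKM, followed by Hoxc6 at 5.31, Hoxc11 at 4.88 and Hoxb4 at 4.85 RPKM. The ranges of Hoxc11 and Hoxb4 over their libraries overlapped, so their order was not resolved. In untreated EpH4-AS, Hoxc10 led with 24.6 RPKM, followed by Hoxd8 at 20.4, Hoxd9 at 19.6, Hoxc4 at 15.1 and Hoxd4 at 11 RPKM, and the ranges of Hoxd8 and Hoxd9 overlapped. The same gene led with PM2.5 in each line, Hoxb9 with 17.5 RPKM in EpH4 and Hoxc10 with 22.1 RPKM in EpH4-AS. In bulk RNA, fewer cells that express a gene and less RNA per cell cannot be told apart.

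Tested by edgeR's quasi-likelihood method, 27 of the 29 genes differed between the untreated lines at an adjusted p under 0.05, which is 93.1%, beside 89.2% of all 13716 genes tested. Being called between the lines was thus near the background. The direction was less even than over all genes, with 21 Hox genes higher in EpH4-AS and 6 lower, beside 43.6% and 45.7% of all genes. Hoxa3, Hoxa4, Hoxb9, Hoxc11 and Hoxc13 were among the lower genes, and Hoxa6 and Hoxb4 were not called. A called difference of over 2-fold was seen in 21 Hox genes, 72.4%, beside 55.2% of all genes, and 16 of the 21 were higher in EpH4-AS. The median log2 difference, EpH4-AS over EpH4, was 1.39 over the 29 genes, or 1.40 with genes absent from EpH4 set at their lower bound, and -0.055 over all genes.

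Summed over all members, the RPKM were 65.0 and 60.8 in untreated EpH4, 62.1 and 64.8 in EpH4 with PM2.5, 166 and 166 in untreated EpH4-AS, and 153 and 149 in EpH4-AS with PM2.5. The sums of the lines did not overlap. Cluster D contributed the largest part of the gap, with 50.7 and 51.7 RPKM in untreated EpH4-AS and 0.0119 and 0 in untreated EpH4, followed by cluster C with 58.8 and 58.3 against 19.7 and 19.1. Cluster A differed less, with 23.9 and 23.2 RPKM in EpH4-AS against 15.3 and 13.6 in EpH4. Cluster B stood at 32.3 and 33.3 RPKM against 29.9 and 28.1, and the direction turned in TMM-scaled CPM, not scaled to gene length, with 68.3 and 68.7 against 91.8 and 88.1. On the log2 RPKM scale the untreated line difference of all genes was shifted up by a median of 0.191 (pseudocount 1) or 0.197 (pseudocount 0.1). The part of this shift in the RPKM sums was not tested. As a share of the Hox sum in the untreated lines, cluster B was 46.1 ± 0.111% in EpH4 and 19.7 ± 0.350% in EpH4-AS, and cluster D 0.00913 ± 0.0129% and 30.8 ± 0.321% (SD, n = 2).

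**Figure D2:**
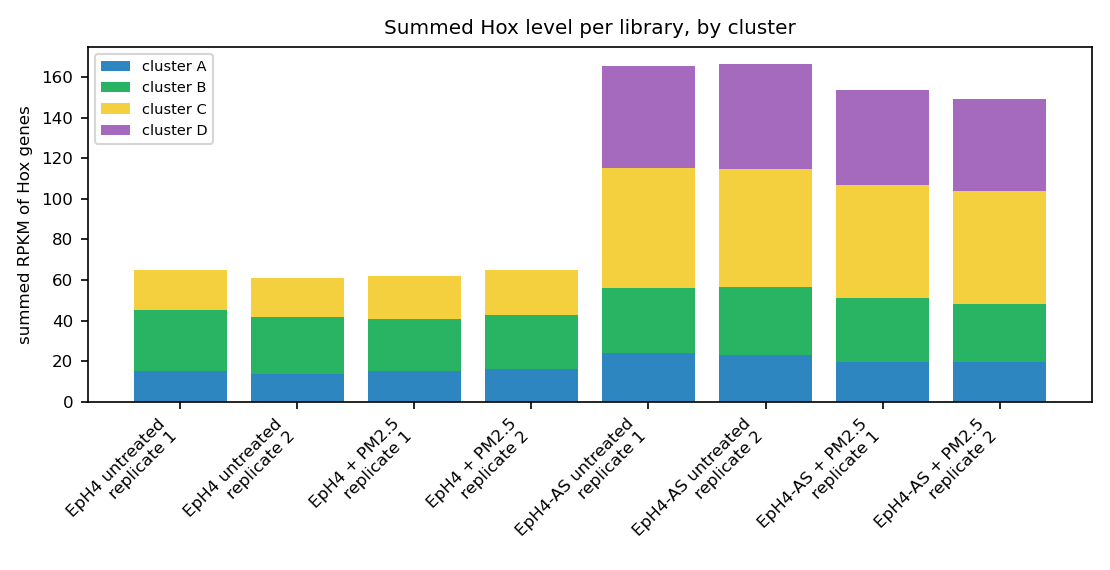
Summed RPKM of the Hox genes in each library, stacked by cluster; each bar is 1 library. The 4 EpH4 libraries total 60.8 to 65.0 RPKM with no visible cluster D, and the 4 EpH4-AS libraries total 149 to 166 RPKM.

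Cluster D lies on chromosome 2 (GRCm39, 74498654 to 74595486). Of its 9 genes, 4 (Hoxd3, Hoxd4, Hoxd8 and Hoxd9) were transcribed in EpH4-AS, and the flanking Hoxd1 and Hoxd10 to Hoxd13 were at or next to 0 in both lines. RefSeq sequence before the annotated start was at hand for all of these, and the windows of the 3 most abundant genes and of Hoxd10, the first silent neighbour, are shown because the boundary between on and off fell between Hoxd9 and Hoxd10. Each window runs from 250 to 51 bases before the start on GRCm38.p6, plus strand, with every CG, the dinucleotide counted here and the same on both strands, in capitals.
Hoxd10 (chr2:74691641-74691840): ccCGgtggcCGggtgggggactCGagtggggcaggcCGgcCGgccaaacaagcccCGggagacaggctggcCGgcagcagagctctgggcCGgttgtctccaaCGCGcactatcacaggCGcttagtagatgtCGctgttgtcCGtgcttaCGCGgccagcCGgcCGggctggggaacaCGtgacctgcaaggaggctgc
Hoxd9 (chr2:74697513-74697712): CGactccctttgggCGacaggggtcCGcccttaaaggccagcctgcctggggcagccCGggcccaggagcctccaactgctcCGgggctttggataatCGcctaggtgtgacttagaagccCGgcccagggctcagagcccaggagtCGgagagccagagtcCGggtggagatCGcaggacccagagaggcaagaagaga
Hoxd8 (chr2:74704365-74704564): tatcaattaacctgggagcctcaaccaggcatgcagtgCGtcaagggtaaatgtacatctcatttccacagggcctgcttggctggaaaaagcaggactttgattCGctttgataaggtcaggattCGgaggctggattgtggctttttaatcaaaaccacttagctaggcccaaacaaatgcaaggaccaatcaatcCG
Hoxd4 (chr2:74721728-74721927): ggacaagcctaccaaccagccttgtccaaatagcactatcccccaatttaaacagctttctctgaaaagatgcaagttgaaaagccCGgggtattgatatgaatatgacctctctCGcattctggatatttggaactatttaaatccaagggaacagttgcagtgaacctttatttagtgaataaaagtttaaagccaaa

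The Hoxd10 window held 18 CG, a number reached by 12.4% of all 32851 promoter windows of this length. Hoxd9 held 10 (29.3% of windows have as many or more), Hoxd8 4 (54.2%) and Hoxd4 2 (75.4%). The other silent genes of the cluster held 16 (Hoxd1), 9 (Hoxd12), 23 (Hoxd13), and 2 or 18 in the 2 windows of Hoxd11, while Hoxd3, transcribed at a low level, held 12. The Hoxd4 window lies before the RefSeq start and not before the start of the counted Hoxd4 region. The counted regions of Hoxd4 and Hoxd3 start next to each other, at 74542273 and 74542271 (GRCm39). Their windows lie well apart, starting at 74721728 and 74711743 (GRCm38.p6). Positions on different builds cannot be compared directly, so only the spacing within each build can be read. The start used in these cells was not determined. Across the 24 windows of the 22 Hox genes that matched, the median was 11 CG, beside 4 over all windows. These counts describe the reference sequence only, since no methylation or chromatin was measured.

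Hoxd8 stood at 55.9 and 62.0 CPM in untreated EpH4-AS and at 57.7 and 54.1 CPM with PM2.5, and had 0 counts in all 4 EpH4 libraries. Hoxd9, a paralogue-9 gene with a role in mammary growth, stood at 45.1 and 43.1 CPM untreated and at 41.3 and 40.8 CPM with PM2.5, also with 0 counts in EpH4. Hoxd4, which helps pattern the neck vertebrae, stood at 31.0 and 28.2 CPM and at 25.3 and 25.0 CPM, with 1 count in each EpH4 group. The lines did not overlap for any of them. Against a floor of 3 counts over the untreated EpH4 group, Hoxd8 was at least 1030-fold and Hoxd9 at least 775-fold higher in EpH4-AS (adjusted p = 7.08e-14 and 8.92e-14). Hoxd4 was 1560-fold higher, with a 95% counting interval of 279 to 61700 (adjusted p = 7.14e-14).

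Hoxd3 ranged from 0.923 to 1.52 CPM in the EpH4-AS libraries and had 0 counts in EpH4, at least 24.4-fold higher in the untreated line (adjusted p = 2.42e-06). Regions of Hoxd3 and Hoxd4 start within a few bases of each other on the same strand, and GENCODE M21 gives them 388 shared exonic bases, so reads may be split between them and the Hoxd3 level is uncertain. Gm28230, a non-coding row overlapping both, had 164 to 206 counts in the EpH4-AS libraries and 0 in EpH4. Mtx2, the first gene past Hoxd1 and not a Hox gene, was expressed in both untreated lines at 38.9 ± 1.66 and 126 ± 2.60 CPM (SD, n = 2). Hoxb7, Hoxd4, Hoxd8 and Hoxd9 were the Hox genes with at most 3 counts in each EpH4 group and at least 5 CPM in every EpH4-AS library, a pattern held by 205 genes, 1.49% of those tested. No Hox gene showed the reverse pattern, which 0.153% of genes did.

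Cluster C lies on chromosome 15 (GRCm39, 102829538 to 102945278). Its central genes and Hoxc10 were higher in EpH4-AS, and its most posterior transcribed genes, Hoxc11 and Hoxc13, were higher in EpH4. Of the 8 genes tested, 6 were higher in untreated EpH4-AS and 2 lower, beside 43.6% and 45.7% of all genes.

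Hoxc10, a lumbar and hindlimb gene, stood at 0.945 and 0.716 CPM in untreated EpH4, 1.07 and 1.40 CPM in EpH4 with PM2.5, 48.8 and 50.3 CPM in untreated EpH4-AS and 46.6 and 44.3 CPM in EpH4-AS with PM2.5. Its log2 difference between the untreated lines was 5.88 ± 0.13 (SE), with an adjusted p of 8.10e-15. Hoxc11, the next gene along, stood the other way, at 11.9, 11.9, 12.2 and 12.99 CPM in EpH4 and at 0.361, 0.127, 0.233 and 0.271 CPM in EpH4-AS. The log2 difference of Hoxc11 was -5.56 ± 0.26 (adjusted p = 2.12e-11), so 2 neighbouring genes of the cluster differed in opposite directions. Hoxc13, known from hair and nail, stood at 10.2, 9.70, 10.4 and 11.4 CPM in EpH4 and at 0.361, 0.253, 0.350 and 0.271 CPM in EpH4-AS, a log2 difference of -4.99 ± 0.25 (adjusted p = 4.51e-11). Hoxc12, which lies between Hoxc11 and Hoxc13, had at most 2 counts in a library.

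Hoxc4 stood at 5.42 and 5.97 CPM in untreated EpH4, 4.46 and 3.90 CPM with PM2.5, and 39.9, 41.8, 39.6 and 42.4 CPM in EpH4-AS. Its lines were far apart, with a log2 difference of 2.84 ± 0.10 (adjusted p = 5.86e-13). Hoxc8, which patterns the thorax, stood at 2.22, 1.99, 1.98 and 2.38 CPM in EpH4 and at 9.51, 6.96, 6.59 and 5.27 CPM in EpH4-AS (log2 1.97 ± 0.20, adjusted p = 3.05e-07). The EpH4-AS libraries of Hoxc8 were the more scattered, yet all lay above EpH4.

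Hoxc6, a central gene transcribed in the mammary gland, differed less between the lines, at 10.2, 10.1, 13.5 and 13.4 CPM in EpH4 and 16.7, 14.5, 16.9 and 17.0 CPM in EpH4-AS. Its log2 difference between the untreated lines was 0.62 ± 0.10 (adjusted p = 4.26e-05). Hoxc9 stood at 6.14, 6.80, 7.96 and 7.15 CPM in EpH4 and 9.15, 9.74, 10.5 and 10.5 CPM in EpH4-AS, a log2 difference of 0.55 ± 0.13 (adjusted p = 0.000883). Hoxc5 was the lowest of the central genes, at 2.11, 1.35, 1.45 and 1.85 CPM in EpH4 and 4.94, 4.24, 5.02 and 4.89 CPM in EpH4-AS (log2 1.39 ± 0.23, adjusted p = 5.13e-05). All 3 were higher in every EpH4-AS library. The deposited region of Hoxc5 spans Hoxc6, Hoxc8, Hoxc9 and Hoxc10, and it shares 166 exonic bases with Hoxc10 in GENCODE M21, so part of its reads may belong to Hoxc10. Of all gene reads of Hoxc5, 88.1% lay outside its exons in untreated EpH4 and 68.1% in untreated EpH4-AS.

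Cluster B lies on chromosome 11 (GRCm39, 96085142 to 96259082). Hoxb9 was the 1 gene lower in EpH4-AS, beside 45.7% of all genes, and 6 genes from Hoxb2 to Hoxb8 were higher, beside 43.6%. The remaining gene of the 8 tested, Hoxb4, was not called between the untreated lines.

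Hoxb9, a paralogue-9 gene of the mammary gland, stood at 67.8 and 66.8 CPM in untreated EpH4, 53.7 and 55.0 CPM with PM2.5, 1.39 and 1.33 CPM in untreated EpH4-AS and 1.34 and 1.68 CPM in EpH4-AS with PM2.5. The lines were apart in every library, by -5.63 ± 0.11 on the log2 scale (adjusted p = 2.91e-15). Hoxb7, its near neighbour, had 2 counts in each EpH4 group and stood at 12.2, 12.6, 12.95 and 12.1 CPM in EpH4-AS. The untreated ratio was 326, with a counting interval of 89.8 to 2700 (adjusted p = 1.55e-11), so 2 genes with 1 gene between them again differed in opposite directions. That gene, Hoxb8, stood at 3.34, 2.74, 2.82 and 2.75 CPM in EpH4 and 4.94, 5.76, 4.96 and 3.96 CPM in EpH4-AS, a log2 difference of 0.81 ± 0.19 (adjusted p = 0.00101).

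Hoxb6 stood at 1.93, 1.91, 1.83 and 2.01 CPM in EpH4 and 18.5, 17.7, 18.0 and 14.8 CPM in EpH4-AS (log2 3.23 ± 0.15, adjusted p = 2.13e-11). Hoxb5 stood at 0.873, 0.954, 0.610 and 1.56 CPM in EpH4 and 6.62, 6.51, 5.78 and 4.72 CPM in EpH4-AS (log2 2.84 ± 0.29, adjusted p = 2.50e-07). Hoxb3 stood at 1.85, 1.59, 2.48 and 1.56 CPM and at 6.92, 6.77, 6.42 and 7.76 CPM (log2 1.98 ± 0.22, adjusted p = 5.24e-07). These 3 were low in EpH4 and clearly present in EpH4-AS, with no overlap. Hoxb2, which patterns the hindbrain, had a single count over the 4 EpH4 libraries and stood at 3.85, 5.38, 4.26 and 3.47 CPM in EpH4-AS. It was at least 80.7-fold higher in untreated EpH4-AS (adjusted p = 1.03e-08), and with PM2.5 the ratio was 195, with a counting interval of 34.4 to 7750.

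Hoxb4, known from blood stem cells, lay at similar levels in both lines, at 16.0 and 14.1 CPM in untreated EpH4 and 13.9 and 12.7 CPM in untreated EpH4-AS. The log2 difference was -0.18 ± 0.10 (adjusted p = 0.104) and its sign turned on the RPKM scale, on which the median of all genes is shifted up by 0.191 (pseudocount 1) or 0.197 (pseudocount 0.1) on the log2 scale. With PM2.5 the values were 18.2 and 18.7 CPM in EpH4 and 12.7 and 13.1 CPM in EpH4-AS, and Hoxb4 was lower in EpH4-AS by -0.51 ± 0.10 on the log2 scale (adjusted p = 0.000175).

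Cluster A lies on chromosome 6 and was transcribed in both lines. Hoxa3 and Hoxa4 were lower in untreated EpH4-AS, Hoxa2, Hoxa5, Hoxa7, Hoxa9 and Hoxa10 were higher, and Hoxa6 was not called. The 2 genes with the largest differences upward, Hoxa7 and Hoxa9, lie in the middle of the cluster.

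Hoxa7 stood at 0.654, 0.318, 0.457 and 0.411 CPM in EpH4 and at 13.3, 13.1, 12.7 and 12.6 CPM in EpH4-AS, a log2 difference of 4.72 ± 0.21 (adjusted p = 1.65e-11). Hoxa9, a mammary and blood gene that acts with Meis1, stood at 4.51 and 4.53 CPM in untreated EpH4, 5.14 and 5.84 CPM with PM2.5, 22.3 and 19.5 CPM in untreated EpH4-AS and 14.7 and 15.04 CPM in EpH4-AS with PM2.5. It was higher in every EpH4-AS library, by 2.21 ± 0.12 on the log2 scale between the untreated lines (adjusted p = 1.30e-10). Hoxa10, which acts in the uterus, stood at 7.31, 5.89, 7.93 and 7.32 CPM in EpH4 and 9.69, 9.11, 8.17 and 8.31 CPM in EpH4-AS (log2 0.51 ± 0.14, adjusted p = 0.00275). Its libraries did not overlap between the lines, but lay close.

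Hoxa3, which patterns the throat and its glands, stood at 14.6, 12.9, 11.8 and 11.9 CPM in EpH4 and 5.72, 4.55, 4.20 and 4.61 CPM in EpH4-AS, a log2 difference of -1.41 ± 0.14 (adjusted p = 1.21e-07). Its region spans Hoxa4, Hoxa5 and Hoxa6, and the antisense row 5730596B20Rik, which had 113 to 158 counts in EpH4 libraries and 1 to 6 in EpH4-AS. Strand handling of the counts is not stated, so reads of Hoxa3 and this row cannot be told apart with certainty. Hoxa4 ranged from 3.06 to 4.22 CPM in EpH4 and from 0.992 to 1.87 CPM in EpH4-AS (log2 -1.21 ± 0.26, adjusted p = 0.000476).

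Hoxa5, which acts in the lung and the mammary gland, stood at 6.54 and 6.28 CPM in untreated EpH4, 7.81 and 7.89 CPM with PM2.5, 7.59 and 8.98 CPM in untreated EpH4-AS and 5.72 and 7.22 CPM in EpH4-AS with PM2.5. Its lines overlapped over all libraries, and the untreated log2 difference of 0.37 ± 0.14 (adjusted p = 0.0269) was lost without EpH4 untreated replicate 2 (0.35, adjusted p = 0.0628) or EpH4-AS untreated replicate 2 (0.23, adjusted p = 0.237), with the DESeq2 Wald test (adjusted p = 0.111) and with reads of EpH4 drawn down to the average depth of EpH4-AS, which was chosen after seeing the data (adjusted p = 0.0707). Hoxa2, a gene of the pharyngeal arches, ranged from 0.495 to 0.835 CPM in EpH4 and from 0.706 to 2.16 CPM in EpH4-AS, with overlap. Untreated it was higher in EpH4-AS by 1.07 ± 0.46 (adjusted p = 0.0401), lost without EpH4 untreated replicate 1 (0.78, adjusted p = 0.168) or either untreated EpH4-AS library (0.93 and 1.18, adjusted p = 0.174 and 0.0782), and with the DESeq2 Wald test (adjusted p = 0.0969). Between the untreated lines, neither Hoxa5 nor Hoxa2 passed edgeR's test against a 1.5-fold change (adjusted p = 0.948 and 0.107). Nor did Hoxa10, Hoxb8, Hoxc6 and Hoxc9 in that test (adjusted p = 0.586, 0.0652, 0.236 and 0.471). Hoxa6 ranged from 1.19 to 1.73 CPM in EpH4 and from 1.58 to 2.16 CPM in EpH4-AS, and its log2 difference of 0.48 ± 0.28 was not called (adjusted p = 0.121).

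By position, 12 of the 15 central genes were higher in untreated EpH4-AS, 1 was lower and 2 were not called, beside 43.6% higher and 45.7% lower over all genes. Among the 16 posterior genes, 5 were higher, 3 lower and 8 not tested. The central share of the Hox RPKM was 34.3 ± 1.02% in untreated EpH4 and 60.6 ± 0.155% in untreated EpH4-AS. Posterior genes held 56.2 ± 0.949% in EpH4, mostly Hoxb9, and 34.7 ± 0.258% in EpH4-AS (SD, n = 2). Anterior genes held 9.46 ± 0.0677% and 4.78 ± 0.413%.

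With PM2.5 the line difference kept its direction for most genes. Of the 29 genes, 25 were called (86.2%), beside 89.0% of all genes, with 19 higher in EpH4-AS and 6 lower, beside 43.5% and 45.5%. Over 2-fold were 21 genes, 72.4%, beside 53.9% of all genes. The median log2 difference was 1.44, beside -0.0371 over all genes, and 24 genes were called the same way with and without PM2.5. Hoxa5, Hoxa6 and Hoxa10 were among those not called with PM2.5. The log2 difference of Hoxa5 turned from 0.366 untreated, called higher, to -0.275 ± 0.144 with PM2.5 (edgeR, adjusted p = 0.0859). Hoxb4, not called untreated, was called lower with PM2.5. Hoxa2 lost its call there without EpH4-AS with PM2.5 replicate 1 (0.36, adjusted p = 0.538) or EpH4 with PM2.5 replicate 1 (1.18, adjusted p = 0.0779), and Hoxb8 without EpH4-AS with PM2.5 replicate 1 (0.52, adjusted p = 0.0586). Over all 8 libraries, the 4 EpH4-AS values lay above the 4 EpH4 values for 19 of the 29 genes, beside 42.0% of all genes, and below them for 7, beside 43.8%. The lines overlapped for Hoxa2, Hoxa5 and Hoxa6. Among the genes called with PM2.5, Hoxb4, Hoxb8, Hoxc6 and Hoxc9 did not pass edgeR's test against a 1.5-fold change.

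**Figure D3:**
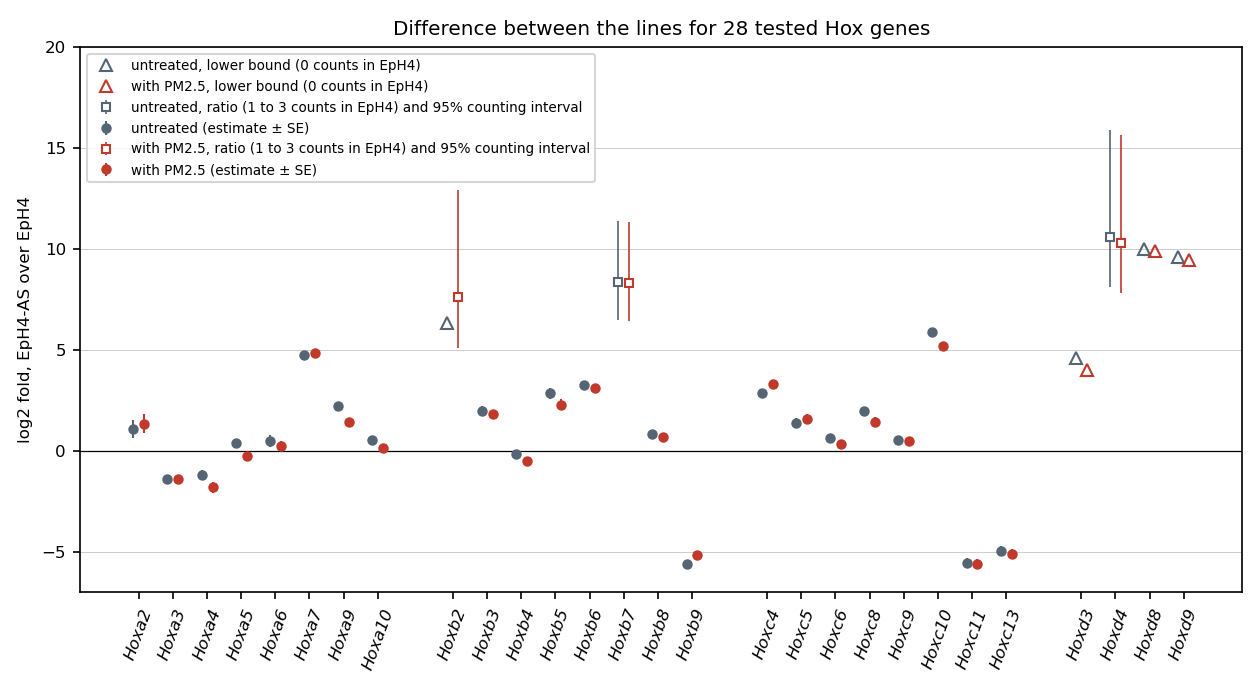
Log2 fold, EpH4-AS over EpH4, for 28 of the 29 tested Hox genes in order of cluster and paralogue number, untreated and with PM2.5. Filled points are edgeR estimates with their SE, open squares ratios with 95% counting intervals where EpH4 had 1 to 3 counts, and triangles lower bounds where EpH4 had 0 counts. Untreated, Hoxb9, Hoxc11 and Hoxc13 lie at -5.63, -5.56 and -4.99, and Hoxc10, the neighbour of Hoxc11, at 5.88.

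PM2.5 moved few Hox genes in EpH4, and by little. It raised Hoxb4 and Hoxc6 and lowered Hoxb9 and Hoxc4, so 4 of the 29 genes were called (13.8%), below the 27.2% of all genes. The 2 that rose and 2 that fell stand beside 14.3% and 12.9% of all genes. None of the 4 changed by over 2-fold, as 2.81% of all genes did. The median log2 change was 0.0505 over the 29 genes and 0.00438 over all genes.

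Hoxb9, the most abundant Hox transcript of EpH4, fell from 67.8 and 66.8 CPM to 53.7 and 55.0 CPM, a log2 change of -0.31 ± 0.06 (adjusted p = 0.00168). Hoxc6 rose from 10.2 and 10.1 CPM to 13.5 and 13.4 CPM (0.40 ± 0.10, adjusted p = 0.00733). Both kept their call with any 1 library left out, but Hoxb9 lost it with limma on log2(RPKM + 0.1) (adjusted p = 0.0831), and Hoxc6 with the DESeq2 Wald test (adjusted p = 0.0561) or when reads of EpH4 were drawn down to the average depth of EpH4-AS (adjusted p = 0.0753). Hoxc4 fell from 5.42 and 5.97 CPM to 4.46 and 3.90 CPM (-0.44 ± 0.13, adjusted p = 0.0185), and lost its call without EpH4 untreated replicate 2 (adjusted p = 0.113) or EpH4 with PM2.5 replicate 2 (adjusted p = 0.136). Hoxb4 rose from 16.0 and 14.1 CPM to 18.2 and 18.7 CPM (0.29 ± 0.09, adjusted p = 0.0286), and lost its call without EpH4 untreated replicate 2 (adjusted p = 0.185) or either library with PM2.5 (adjusted p = 0.0641 and 0.120). Hoxb4 and Hoxc4 also lost their calls with the DESeq2 Wald test (adjusted p = 0.178 and 0.0536), with a fit to the 2 EpH4 groups only (adjusted p = 0.0707 and 0.0758) and at that reduced depth (adjusted p = 0.188 and 0.0784), and Hoxb4 with limma on log2(RPKM + 0.1) (adjusted p = 0.0523). None of the 4 passed edgeR's test against a 1.5-fold change. For all 4 genes the exposed and untreated libraries did not overlap, which adds no support, since the genes were called on these same libraries.

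In EpH4-AS, Hoxa9 was the sole Hox gene called for PM2.5, 3.45% of the 29 beside 11.1% of all genes. None rose and 1 fell, beside 6.39% and 4.75% of all genes, and none changed by over 2-fold, as 0.802% of all genes did. Hoxa9 fell from 22.3 and 19.5 CPM to 14.7 and 15.04 CPM, a log2 change of -0.50 ± 0.11 (adjusted p = 0.00891). Its exposed and untreated libraries did not overlap, which adds no support to a call made on these same libraries. Exposed EpH4-AS libraries lay below the untreated ones for 10 of the 29 genes and above them for 2. In EpH4 the exposed libraries lay below for 3 and above for 10. The share over all genes was not counted in either line, so no shift of the Hox genes can be read from these counts. The Hoxa9 call was lost without EpH4-AS untreated replicate 1 (-0.37) or either library with PM2.5, and Hoxa9 did not pass the test against a 1.5-fold change. Of the cluster D genes, Hoxd8 and Hoxd9 changed by -0.08 ± 0.08 and -0.11 ± 0.08 (adjusted p = 0.596 and 0.454), Hoxd4 by -0.24 ± 0.10 (adjusted p = 0.158) and Hoxc10 of cluster C by -0.12 ± 0.08 (adjusted p = 0.343). The median log2 change over the 29 genes was -0.0762, beside 0.00245 over all genes.

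**Figure D4:**
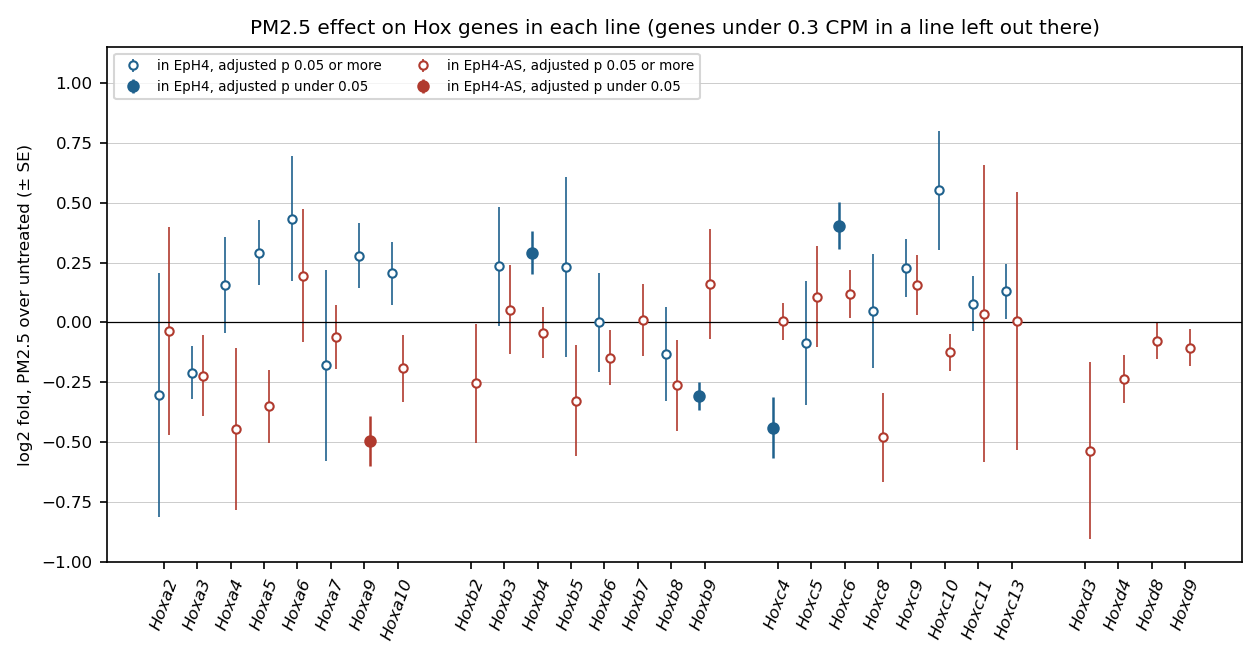
Log2 fold, PM2.5 over untreated, with SE, for 28 of the 29 tested Hox genes in each line; filled points have an adjusted p under 0.05, and genes under 0.3 CPM in every library of a line are left out there. The 4 filled points in EpH4 and the 1 in EpH4-AS all lie within 0.50 of 0 on the log2 scale.

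The PM2.5 effect differed between the lines for 1 Hox gene, Hoxa9, which is 3.45% of the 29 beside 14.1% of all genes. No Hox gene had a called difference above 0 and 1 had one below 0, beside 7.60% and 6.49% of all genes, and none was over 2-fold, beside 1.74%. The effect in EpH4-AS minus that in EpH4 was -0.77 ± 0.17 on the log2 scale (adjusted p = 0.00885). In EpH4, Hoxa9 stood at 4.51 and 4.53 CPM untreated and at 5.14 and 5.84 CPM with PM2.5, a change of 0.28 ± 0.14 that was not called there (adjusted p = 0.153). The difference lost its call without EpH4-AS untreated replicate 1 (-0.65) and in edgeR's test against a 1.5-fold change. Hoxa5 (-0.64 ± 0.20, adjusted p = 0.0507) and Hoxc4 (0.44 ± 0.15, adjusted p = 0.0612) fell just outside the threshold. Hoxb4, Hoxb9 and Hoxc6, called in EpH4, were not shown to respond differently in EpH4-AS (adjusted p = 0.136, 0.292 and 0.200 for the difference). For Hoxd3, Hoxd8 and Hoxd9, absent from EpH4, no difference of effects could be estimated.

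**Figure D5:**
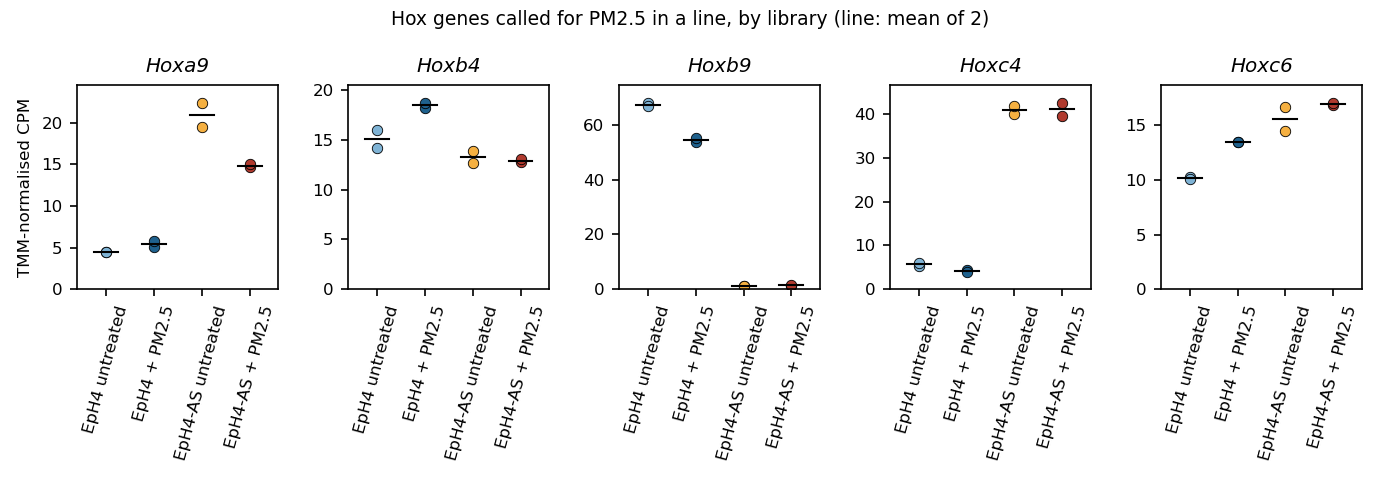
TMM-normalised CPM of the 5 Hox genes called for PM2.5 in a line, in each of the 8 libraries (points) with the mean of each group (line); each axis starts at 0. Hoxa9 falls from 22.3 and 19.5 to 14.7 and 15.04 CPM in EpH4-AS, and Hoxb9 falls in EpH4.

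Genes related to Hox proteins and their clusters were read from 6 lists. Over all genes, 43.6% were called higher and 45.7% lower in untreated EpH4-AS. The list of TALE homeodomain genes holds the Pbx and Meis partners of Hox proteins and also the Tgif genes. It had 7 of 11 tested genes higher in EpH4-AS and 4 lower (median log2 0.495). Pbx3 stood at 11.1 ± 1.39 CPM in EpH4 and 92.4 ± 0.377 CPM in EpH4-AS, while Tgif1 fell from 332 ± 30.2 to 68.9 ± 3.22 CPM (SD, n = 2). Tgif2 and Pbx4 were higher in EpH4-AS by 2.30 ± 0.11 and 6.70 ± 0.33 on the log2 scale (adjusted p = 2.70e-11 and 4.07e-11). With PM2.5, 3 of the 11 were called lower and 0 higher in EpH4, beside 12.9% lower and 14.3% higher over all genes. In EpH4-AS 4 were called lower and 1 higher, beside 4.75% and 6.39%.

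The Trithorax and H3K27 demethylase list was higher throughout, with 11 of 11 genes called higher in untreated EpH4-AS and a median log2 of 0.868, beside -0.055 over all genes. Kmt2a, the methyltransferase that maintains Hox transcription, stood at 210 ± 4.47 CPM in EpH4 and 564 ± 8.20 CPM in EpH4-AS, and Kdm6b and Kdm6a, which remove the Polycomb mark, at 113 ± 0.238 and 69.8 ± 4.72 CPM against 241 ± 12.4 and 153 ± 8.75 CPM (SD, n = 2). Of the Polycomb genes, 12 of 24 were higher and 11 lower (median log2 0.101), near the shares over all genes, among them Pcgf2 at 1.59 ± 0.06 and Rbbp4 at -1.13 ± 0.05. Of the Cdx and retinoid genes, upstream of Hox in the embryo, 4 of 11 were higher and 6 lower, beside 43.6% and 45.7% of all genes. The retinoic-acid degrading enzyme Cyp26b1 stood at -4.88 ± 0.16 and the synthesising enzyme Aldh1a1 at 5.25 ± 0.18 on the log2 scale. Another degrading enzyme, Cyp26a1, and another synthesising enzyme, Aldh1a3, went the other way, at 3.189 ± 0.635 and -5.185 ± 0.529. Cyp26a1 was low, with a mean of 0.744 CPM in untreated EpH4-AS.

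Of the other factors of position, 7 of 17 tested were higher and 9 lower, near the 43.6% and 45.7% over all genes. Tbx3, needed for the mammary bud, fell from 95.4 ± 3.69 CPM in EpH4 to 5.47 ± 0.583 CPM in EpH4-AS, Irx1 from 48.4 ± 4.61 to 1.02 ± 0.341 CPM and Prrx2 from 45.1 ± 1.73 to 1.76 ± 0.0175 CPM, and Lhx9 rose from 0.0761 ± 0.00483 to 29.2 ± 0.536 CPM (SD, n = 2). Of the genes beside the clusters, 5 of 20 tested were higher in EpH4-AS and 14 lower (median log2 -0.37), beside 45.7% lower over all genes, and 10 of the 20 were lower on the RPKM scale. Snx10, beside cluster A, was lower by -5.06 ± 0.13 and Cbx5, beside cluster C, by -1.91 ± 0.05 on the log2 scale, while Mtx2, beside cluster D, was higher by 1.70 ± 0.06. In a comparison of scalings chosen after seeing the data, counts of higher and lower calls in the 6 lists moved by at most 4 genes between TMM, DESeq2 size factors, library totals and the RPKM scale, and no list changed the side that held more genes, except that the Cdx and retinoid list stood even, 5 higher and 5 lower, on the RPKM scale.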

How the data were processed

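Polyadenylated RNA was sequenced from 8 libraries in 4 groups with a stranded mRNA kit, per the labels. Raw counts per gene were deposited by the authors, with gene regions on GRCm39 per the submitters' processing notes. RPKM were deposited by the authors scaled to exon length and library reads, together with gene reads that include reads outside exons. No source used here gives the aligner, counter, strand setting or annotation release.

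Of 25413 genes, 13716 passed filterByExpr. Counts were TMM-scaled, and edgeR 4.0.16 (under R 4.3.3) fitted its quasi-likelihood model to all 4 groups (4 residual degrees of freedom), with 5 contrasts, two-sided, Benjamini-Hochberg adjustment over all genes and a threshold of 0.05. The SE of a log2 fold change is its size over the square root of F. A group with 0 counts was set at 3 counts over the group for a lower bound, and 1 to 3 counts gave a ratio with an exact 95% interval, both covering counting error only. Levels of different genes were compared by RPKM. Library values were given for members that passed the filter and reached 5 CPM in a library (24 genes), and ranges for the rest. Of each context list up to 4 members of smallest adjusted p were eligible, and Aldh1a3 and Cyp26a1 were added as enzymes going the other way. The other genes named in the opening check were markers. The Hox genes, context lists and tests were chosen with earlier results of these data known. Promoter sequence came from RefSeq (GRCm38.p6), and GENCODE M21 (GRCm38) served for exon overlap only. Cluster miRNAs were not analysed here, and 1 Hox gene, which counts in the totals, is not reported by itself. The fit was tested on simulated data. Same-numbered libraries were checked for pairing: their deviations correlated between -0.101 and 0.065, so the numbers were not taken as pairs. Alternatives used DESeq2 1.42.0, limma 3.58.1, other scalings and filters, a replicate block, and each library left out.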

Additional observations from a re-analysis of the deposited data

Results flagged for a closer look

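For Hoxa9 the PM2.5 effect in EpH4-AS minus that in EpH4 was -0.77 on the log2 scale (edgeR, adjusted p = 0.00885). It stands out because the test of the difference itself passed the threshold, with Hoxa9 lower with PM2.5 in both EpH4-AS libraries and higher in both EpH4 libraries. The rise in EpH4 was not called by itself (edgeR, adjusted p = 0.153). The call of the difference rested on EpH4-AS untreated replicate 1, without which the difference was -0.65. It was also lost in edgeR's test against a 1.5-fold change.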

How the results depend on the processing

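Of 64 gene results, 41 kept their direction and their side of the threshold under all 20 alternatives (19 for the line dependence of the PM2.5 effect), 2 of which were chosen after seeing the data, and the counts between the lines stayed within 1.5 times. With PM2.5 in EpH4, where 4 genes were called, the count was 1 with the DESeq2 Wald test, 2 with a fit to 2 groups only, 0 with TREAT against 1.5-fold, 2 with limma on log2(RPKM + 0.1), 1 with EpH4 libraries thinned to the EpH4-AS depth, and 2 to 4 with each library left out. In EpH4-AS, where 1 was called, it was 2 without a filter, 3 with 2 groups only, 0 with TREAT, 2 on log2(RPKM + 1), and 0 to 1 with each library left out. For the line dependence, where 1 was called, it was 2 with DESeq2 size factors, library totals or a filter of 1 CPM, 3 without a filter or on log2(RPKM + 1), 0 with TREAT, and 0 to 3 with each library left out (2 groups only could not be fitted for it). Where leaving out a library left its group with 1, the spread came from the other groups. The replicate block changed no count of calls by over 1.5 times: 21 and 6 between the untreated lines and 4, 1 and 1 for the PM2.5 effects and their difference. Crossing the EpH4 numbers in the block, added after seeing the data, gave 3 for the difference. The untreated line difference of Hoxb4, -0.18 on the log2 scale, turned to 0.01 on log2(RPKM + 1) and 0.02 on log2(RPKM + 0.1), the scale on which all genes shifted up. The cause of the other changes was not tested. EpH4-AS libraries were shallower than EpH4 libraries, and members under 5 CPM rest on few reads.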
